A study of Mus musculus with 15 samples.

Results

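The 50 genes described here encode proteins that copy DNA and carry cells through mitosis, together with the cyclins and the E2F factor that open S phase. They were matched by gene name to a list of well-known cell cycle genes, and all 50 were found among the 56092 named genes of the table. By phase, 23 are S-phase genes: 11 load or activate the replicative helicase, 9 are replication and nucleotide enzymes, and 3 regulate the G1/S step. A further 24 are G2/M genes: 8 are mitotic cyclins or control CDK1, 7 are mitotic kinases or checkpoint genes, and 9 serve chromosomes, kinetochores and the spindle. The remaining 3 are the D-type cyclins, which act in G1, and they are described on their own. S-phase and G2/M genes are reported apart throughout.

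RNA was sequenced from sorted STR-KI cells, mouse embryonic stem cells whose knock-in reporters mark both fates: one Sox2 allele carries mCherry and one Tbxt (Brachyury) allele carries GFP. Every group shares this genotype (Sox2::mCherry/WT, Tbxt::GFP/WT). All cells first passed through 48 h of 10 ng/mL FGF2 and 24 h of FGF2 with 5 µM CHIR, a WNT activator, and those positive for both reporters were the neuromesodermal progenitor (NMP) group, with 3 libraries. After 48 h more in FGF/CHIR, mCherry-positive cells (Sox2 48 h, 2 libraries) and GFP-positive cells (Tbxt 48 h, 2 libraries) were sorted. Sox2-derived cells grown for 7 d were sorted as Sox2+ in FGF (2 libraries) or FGF/CHIR (1 library) and as double negative (DN) in FGF (1 library) or FGF/CHIR (1 library), and Tbxt-derived cells grown for 7 d in FGF/CHIR were sorted as DN (Tbxt 7 d, 3 libraries). The line is a single knock-in line, and no label says that the libraries of a group came from separate cultures, so p-values measure only the spread between these libraries. Groups with 1 library have no replicate check.

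As background, a dividing cell licenses its replication origins in G1 by loading the MCM helicase with CDC6 and CDT1, and D-type cyclins with CDK4 or CDK6 release E2F factors from the retinoblastoma family. E2F factors then switch on genes of DNA synthesis, and cyclin E with CDK2 starts S phase. Later the MuvB core with B-MYB and FOXM1 drives the mitotic genes, many of which carry a cell cycle homology region and CCAAT boxes in their promoters, and the DREAM complex holds both waves down in resting cells. In the embryo, NMPs at the caudal end divide while they give rise to spinal cord and paraxial mesoderm.

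Promoters of S-phase and G2/M members differed in the share that held some searched motifs, and 4 promoters are shown as examples of the motifs. They were chosen for holding a match upstream of the start (E2F for S-phase genes, TTTGAA and CCAAT for G2/M genes), in order of the number of comparisons that called the gene. They do not stand for all members: Ccnb1, called in 8 comparisons, held no TTTGAA and Prim1, called in 5, no E2F match. The sequences are the 250 bases before the gene's start, from the RefSeq promoter table of build GRCm38.p6, an earlier build than the GRCm39 used for the authors' alignment. They run 5′ to 3′ along the gene. Capitals mark matches to a searched motif on either strand: an E2F site (TTTCCCGC, TTTGGCGC, TTTCGCGC or TTTGCCGC), the core TTTGAA of the cell cycle homology region, or CCAAT.
Mcm5 (chr8:75109259-75109508, plus strand): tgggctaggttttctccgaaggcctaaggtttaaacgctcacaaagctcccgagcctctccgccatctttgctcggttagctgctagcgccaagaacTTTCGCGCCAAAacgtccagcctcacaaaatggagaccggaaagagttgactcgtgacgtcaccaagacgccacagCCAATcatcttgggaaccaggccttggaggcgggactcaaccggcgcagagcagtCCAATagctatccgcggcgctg
Cdc6 (chr11:98907901-98908150, plus strand): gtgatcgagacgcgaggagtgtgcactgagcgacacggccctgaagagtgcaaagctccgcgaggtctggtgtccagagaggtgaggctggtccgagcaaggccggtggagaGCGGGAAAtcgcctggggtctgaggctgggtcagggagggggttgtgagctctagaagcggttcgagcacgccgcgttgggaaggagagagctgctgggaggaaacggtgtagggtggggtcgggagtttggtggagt
Cdc20 (chr4:118437344-118437593, minus strand): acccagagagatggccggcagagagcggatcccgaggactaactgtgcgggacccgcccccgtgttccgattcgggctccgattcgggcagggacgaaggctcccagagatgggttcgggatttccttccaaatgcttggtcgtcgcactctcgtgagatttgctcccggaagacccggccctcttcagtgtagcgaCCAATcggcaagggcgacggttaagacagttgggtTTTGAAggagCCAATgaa
Ccnb2 (chr9:70421555-70421804, minus strand): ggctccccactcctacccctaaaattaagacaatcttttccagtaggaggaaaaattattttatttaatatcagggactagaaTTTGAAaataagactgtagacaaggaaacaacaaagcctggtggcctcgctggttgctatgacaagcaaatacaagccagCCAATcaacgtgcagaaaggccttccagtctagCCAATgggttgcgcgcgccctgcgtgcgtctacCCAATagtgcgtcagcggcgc
In Mcm5, a subunit of the helicase ring, 2 overlapping E2F matches lie at -153 to -146 and -149 to -142, counted back from the gene's start, with CCAAT at -77 to -73 and -22 to -18. Cdc6, which loads the helicase, has 1 E2F match at -138 to -131. Cdc20, an activator of the anaphase-promoting complex, has TTTGAA at -18 to -13 between CCAAT boxes at -53 to -49 and -8 to -4. Ccnb2, a mitotic cyclin, has TTTGAA at -167 to -162 and 3 CCAAT boxes nearer the start. When the bases just after the start were searched too, Ccnb2 had 2 TTTGAA matches, so the other is not within the printed bases. Whether either match is part of a cell cycle homology region was not tested.

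Promoters of 40 of the 50 members were in that table (20 S-phase, 19 G2/M and Ccnd3); Mcm4, Gins2, Ccne2, Ccnd1, Ccnd2, Ccna2, Cdc25c, Foxm1, Aurkb and Tpx2 were not matched. Over the window of 300 bases, 250 before and 50 after the start, an E2F match stood in 7 of 20 S-phase promoters (35.0%), in 1 of 19 G2/M promoters (5.26%, that of Cdk1) and in 2.32% of all 27025 promoters. The S-phase members with a match were Mcm3, Mcm5, Mcm6, Mcm7, Cdt1, Cdc6 and Pola1, all but Pola1 being helicase genes. TTTGAA stood in 14 of 19 G2/M promoters (73.7%), in 3 of 20 S-phase promoters (15%) and in 18.1% of all promoters. In the 250 upstream bases alone TTTGAA was found in 7 of 19 G2/M promoters (36.8%) against 16.3% of all. CCAAT stood in 84.2% of G2/M, 65.0% of S-phase and 37.9% of all promoters, and both TTTGAA and CCAAT in 68.4%, 10.0% and 7.12%. These are matches of letters and not measured binding sites.

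Levels are in CPM, each library's counts scaled to a common total, as deposited. The step of 1 read inferred from the values gave 3.43 to 9.88 M reads in 14 libraries and 0.799 M in FGF Sox2+ replicate 2, where 3 reads equal 3.76 CPM against 0.304 to 0.874 CPM elsewhere. These floors cover counting error only. All 50 members lay above the 3-read floor in all 15 libraries and passed the filter, with values from 3.69 to 1147 CPM. NMP replicate 1 and Tbxt 7 d replicate 1 differed more from the other libraries of their groups than those did from each other. Tbxt 7 d replicate 1 had the highest value of its group in 20 of 23 S-phase and 12 of 24 G2/M members. Markers went with the labels for the most part: the summed NMP marker list stood at 1170 to 1350 CPM in NMPs and 1.19 to 4.08 CPM in Tbxt 7 d libraries. The presomitic list stood at 451 to 564 CPM in Tbxt 48 h, the neural progenitor list at 717 and 1130 CPM in FGF Sox2+, and the mesenchyme list at 4050 to 6440 CPM in Tbxt 7 d libraries.

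A value after a gene with ± is its log2 fold change ± SE, first-named group over second, from 1 limma fit of all 15 libraries on log2(CPM + 1), which understates changes of low genes. "Higher", "lower", "rose" and "fell" are used of genes with an adjusted p under 0.05 over all 12943 genes tested. A value introduced by "without" a library is the adjusted p of the fit that leaves that library out. In bulk RNA, fewer cells in a phase and less RNA per cell cannot be told apart.

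Across the 8 groups the S-phase and G2/M genes took different courses, as the map of levels relative to NMPs shows. The mean was highest in FGF Sox2+ cells for 24 of 50 members, of which 19 were among the 24 G2/M genes and 5 among the 23 S-phase genes. It was lowest in Tbxt 7 d cells for 37 members, 21 of 23 S-phase and 16 of 24 G2/M genes. The share of all genes with their highest or lowest mean in these groups was not taken. These counts therefore describe the members only and do not set them apart from other genes. In each library the median log2 difference from the NMP mean was taken over a phase. For S-phase genes it stayed between -0.119 and 0.073 in the NMP, 48 h and Sox2+ libraries. It was -0.459 in FGF/CHIR DN and -0.392 in FGF DN, and -0.939, -1.61 and -1.63 in the Tbxt 7 d libraries. For G2/M genes it was -0.578 and -0.443 in Sox2 48 h and -0.387 and -0.193 in Tbxt 48 h libraries. At 7 d it was 0.453 and 0.081 in FGF Sox2+, -0.062 in FGF/CHIR Sox2+, -0.473 in FGF DN, -0.264 in FGF/CHIR DN and -0.67, -0.917 and -0.681 in Tbxt 7 d libraries. The S-phase median stood above the G2/M median in all 4 of the 48 h libraries and below it in both FGF Sox2+ and all 3 Tbxt 7 d libraries.

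**Figure D1:**
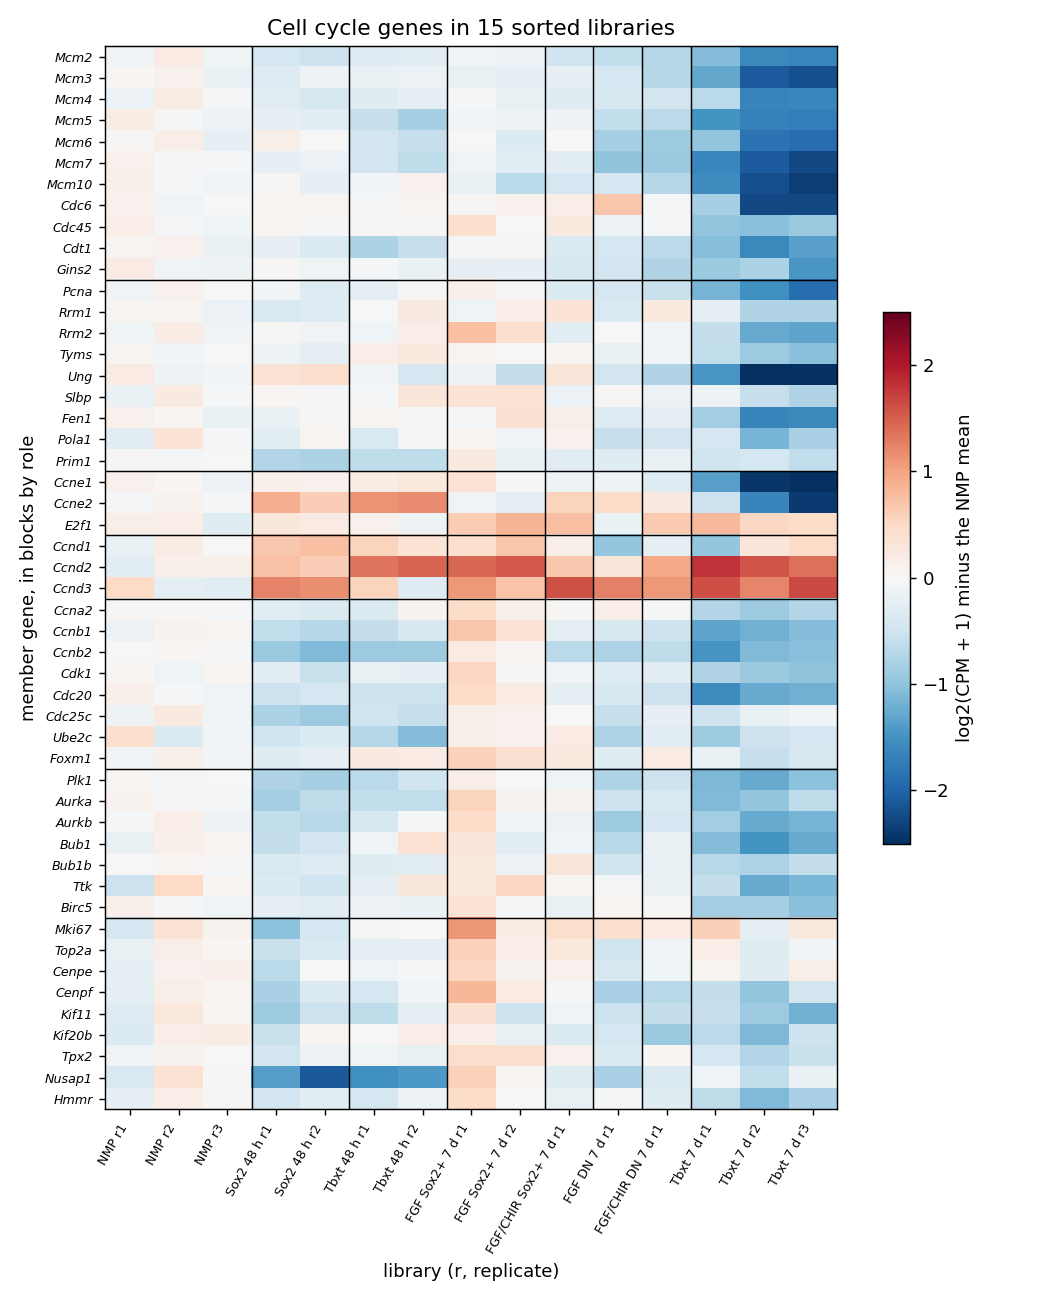
Each row is 1 of the 50 genes and each column 1 of the 15 libraries; colour gives log2(CPM + 1) minus the NMP mean, with genes in blocks by role. The helicase block is lowest in the 3 Tbxt 7 d columns, and the 24 G2/M genes, pooled over their 3 blocks, have medians of -0.193 and below in the 48 h and Tbxt 7 d columns and of 0.453 in FGF Sox2+ replicate 1.

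**Figure D2:**
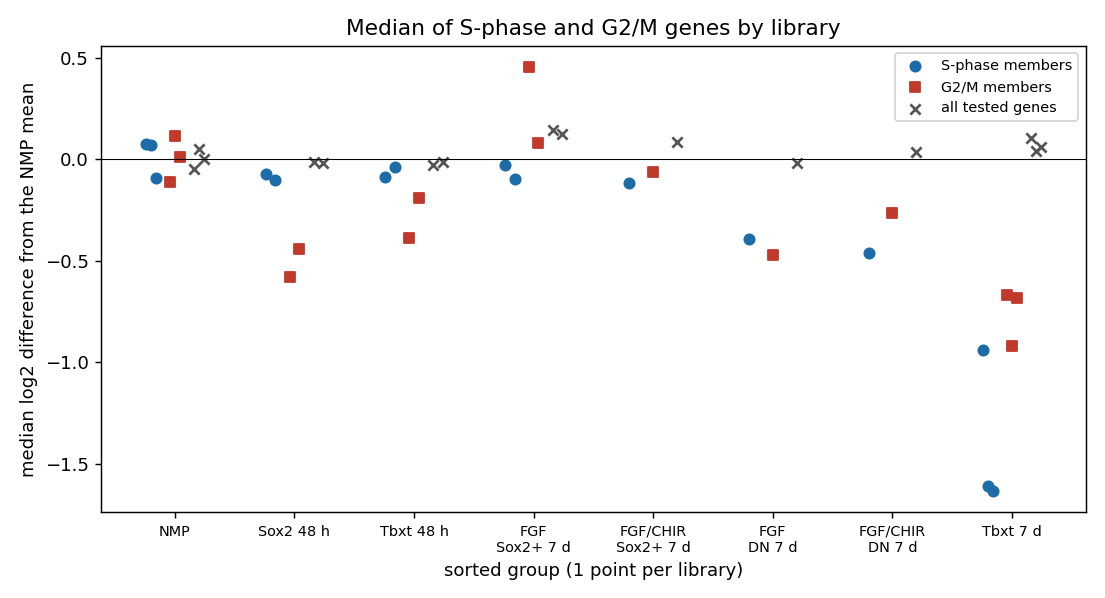
Points give, for each library, the median log2 difference from the NMP mean over the 23 S-phase genes, the 24 G2/M genes and all genes tested. The S-phase median leaves the range of -0.119 to 0.073 only in the DN and Tbxt 7 d libraries.

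The first comparisons ask what changed in the 48 h after the NMP state; both use the same NMP libraries, so they are not independent. In Sox2 48 h cells, 7 of 24 G2/M genes and 1 of 23 S-phase genes fell against NMPs, and 2 of 3 D-type cyclins rose. Called members thus numbered 10 of 50, beside 7.92% of all genes tested (2.65% higher, 5.27% lower). All 24 G2/M genes had a negative estimate, with a median of -0.48; the S-phase median was -0.08 and that of all genes -0.01. Nusap1, which bundles spindle microtubules, stood at 41, 69.1 and 54.4 CPM in the NMP libraries, 19.9 and 11.7 CPM in Sox2 48 h and 18 and 19.1 CPM in Tbxt 48 h libraries. Its 7 d values were 80.8 and 56.3 CPM in FGF Sox2+, 43.2 CPM in FGF/CHIR Sox2+, 30.2 CPM in FGF DN, 41.7 CPM in FGF/CHIR DN and 49.5, 34.6 and 47.8 CPM in Tbxt 7 d libraries. All 4 of the 48 h libraries lay below every NMP and every 7 d library. It was lower in Sox2 48 h cells by the largest estimate among the members (-1.75 ± 0.27, adjusted p = 0.0014). Ccnb2, a B-type cyclin that partners CDK1, stood at 115, 119 and 112 CPM in the NMP libraries, 60.3 and 52.9 CPM in Sox2 48 h and 60.7 and 62.2 CPM in Tbxt 48 h libraries. Its 7 d values were 133 and 121 CPM in FGF Sox2+, 72 CPM in FGF/CHIR Sox2+, 66.9 CPM in FGF DN, 73.6 CPM in FGF/CHIR DN and 41.1, 52.9 and 55.2 CPM in Tbxt 7 d libraries. The 48 h libraries held about the level of Tbxt 7 d libraries and none overlapped NMPs; Ccnb2 was lower in Sox2 48 h cells (-1.02 ± 0.15, adjusted p = 0.000973).

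Plk1, the polo kinase of mitotic entry and spindle assembly, was 85.2, 79.7 and 80.8 CPM in the NMP libraries, 48 and 45.9 CPM in Sox2 48 h and 50.6 and 57.5 CPM in Tbxt 48 h libraries, and at 7 d 91.5 and 81.4 CPM in FGF Sox2+, 76.1 CPM in FGF/CHIR Sox2+, 47.7 CPM in FGF DN, 57.1 CPM in FGF/CHIR DN and 37.3, 33.7 and 39.8 CPM in Tbxt 7 d libraries. The NMP and FGF Sox2+ libraries were the highest and did not overlap the 48 h libraries, and Plk1 fell in Sox2 48 h cells (-0.79 ± 0.14, adjusted p = 0.00327), with 0.0539 when Sox2 48 h replicate 2 was left out. Aurka, the centrosomal Aurora kinase, was 88.7, 82.3 and 81.1 CPM in the NMP libraries, 45.9 and 53.5 CPM in Sox2 48 h and 54.6 and 54.2 CPM in Tbxt 48 h libraries. The 7 d levels were 124 and 88.9 CPM in FGF Sox2+, 89.1 CPM in FGF/CHIR Sox2+, 58.6 CPM in FGF DN, 64 CPM in FGF/CHIR DN and 38.7, 42.4 and 54 CPM in Tbxt 7 d libraries. Each 48 h library lay below each NMP library; the call for Aurka (-0.75 ± 0.18, adjusted p = 0.0202) was lost without any 1 of the 5 libraries compared, with adjusted p of 0.0511 to 0.163. Cdc25c, the phosphatase that activates CDK1, was lower (-0.85 ± 0.19, adjusted p = 0.0149), as were Ccnb1 (-0.67 ± 0.14, adjusted p = 0.012) and Cdc20 (-0.49 ± 0.14, adjusted p = 0.0497; lost without any 1 of the 5 libraries, at 0.0929 to 0.231). Those of Cdc25c and Ccnb1 were each lost without any 1 of 3 libraries: NMP replicate 2 for Cdc25c, NMP replicate 3 for Ccnb1, and either Sox2 48 h library for both. Left-out adjusted p reached 0.153 for Cdc25c and 0.137 for Ccnb1.

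Prim1, the small subunit of primase and the only S-phase gene called in Sox2 48 h cells, stood at 48.2, 45.5 and 47.5 CPM in the NMP libraries, 28 and 26.7 CPM in Sox2 48 h and 29.9 and 29.9 CPM in Tbxt 48 h libraries. Values at 7 d were 54.8 and 41.3 CPM in FGF Sox2+, 38.8 CPM in FGF/CHIR Sox2+, 38 CPM in FGF DN, 41.9 CPM in FGF/CHIR DN and 32.9, 34.2 and 30.3 CPM in Tbxt 7 d libraries. The 48 h libraries were the lowest of the series, with Tbxt 7 d libraries just above them, and it fell in Sox2 48 h cells (-0.76 ± 0.15, adjusted p = 0.00814; 0.0527 and 0.0948 without Sox2 48 h replicate 1 or 2). Called members numbered 16 in a fit of these groups alone, 3 without Sox2 48 h replicate 1, 2 without replicate 2, and 6 without NMP replicate 2 or NMP replicate 3.

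The marker lists moved too. From NMP to Sox2 48 h libraries the 6 NMP markers went from 1170 to 1350 CPM in sum to 500.0 and 512 CPM, with Wnt3a listed at 0, and the 5 pluripotency markers from 243 to 367 CPM to 15.2 and 15.5 CPM. The 8 mesenchyme markers went from 53.3 to 68.5 CPM to 288 and 313 CPM, with 7 and 6 above the floor and Lum listed at 0, and the 8 neuron markers from 84.1 to 99.8 CPM to 19.7 and 33.7 CPM. Their part in the member values was not tested.

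In Tbxt 48 h cells, mitotic genes and 3 helicase genes were lower than in NMPs. Against NMPs, 7 of 24 G2/M and 4 of 23 S-phase genes fell and 1 D-type cyclin rose, 12 of 50 members beside 18.4% of all genes (7.82% higher, 10.5% lower). Medians were -0.24 for G2/M, -0.09 for S-phase and -0.02 for all genes. Mcm5 stood at 161, 138 and 128 CPM in the NMP libraries, 122 and 118 CPM in Sox2 48 h and 94.5 and 79.8 CPM in Tbxt 48 h libraries, and at 7 d at 135 and 130.2 CPM in FGF Sox2+, 130.5 CPM in FGF/CHIR Sox2+, 92.7 CPM in FGF DN, 89.6 CPM in FGF/CHIR DN and 49.8, 43.2 and 42.1 CPM in Tbxt 7 d libraries. Its Tbxt 48 h libraries were near the DN libraries and below NMPs (-0.70 ± 0.14, adjusted p = 0.00477; 0.085 without Tbxt 48 h replicate 2). Cdt1, which delivers the helicase to origins, stood at 143, 146 and 121 CPM in the NMP libraries, 117 and 106 CPM in Sox2 48 h and 78.7 and 91 CPM in Tbxt 48 h libraries. At 7 d it was 133 and 139 CPM in FGF Sox2+, 106 CPM in FGF/CHIR Sox2+, 101 CPM in FGF DN, 86.6 CPM in FGF/CHIR DN and 64.9, 44 and 52.7 CPM in Tbxt 7 d libraries. Its lowest libraries were the Tbxt 7 d ones and next the Tbxt 48 h ones, the latter overlapping FGF/CHIR DN; it fell in Tbxt 48 h cells (-0.68 ± 0.17, adjusted p = 0.0131), with 0.0548 and 0.0914 without Tbxt 48 h replicate 2 or 1. Mcm7, also of the helicase ring, stood at 439.6, 398 and 395 CPM in the NMP libraries, 358 and 369 CPM in Sox2 48 h and 299.8 and 264 CPM in Tbxt 48 h libraries. Its 7 d values were 388 and 339.9 CPM in FGF Sox2+, 344 CPM in FGF/CHIR Sox2+, 203 CPM in FGF DN, 214 CPM in FGF/CHIR DN and 132, 96.7 and 85.1 CPM in Tbxt 7 d libraries. Its Tbxt 48 h libraries lay between the Sox2 48 h and the DN libraries; the call (-0.54 ± 0.16, adjusted p = 0.0348) was lost without any 1 of the 5 libraries compared, at up to 0.279.

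Among the G2/M genes of Tbxt 48 h cells, Nusap1 (-1.49 ± 0.27, adjusted p = 0.00219) and Ccnb2 (-0.90 ± 0.15, adjusted p = 0.00125) were past the threshold without any 1 library. Ube2c, the ubiquitin-conjugating enzyme of the anaphase-promoting complex, was lower (-0.90 ± 0.21, adjusted p = 0.00979; 0.152 without Tbxt 48 h replicate 2), and so was Plk1 (-0.59 ± 0.14, adjusted p = 0.0098; 0.0751 without Tbxt 48 h replicate 1). Aurka (-0.62 ± 0.18, adjusted p = 0.0288), Cdc20 (-0.53 ± 0.14, adjusted p = 0.0207) and Prim1 (-0.64 ± 0.15, adjusted p = 0.0118) were lower as well. Those calls were lost without any 1 of the 5 libraries for Aurka, without NMP replicate 1 or either Tbxt 48 h library for Cdc20, and without either Tbxt 48 h library for Prim1. Called members numbered 5 without Tbxt 48 h replicate 1 and 4 without replicate 2. Beside these changes the NMP markers summed to 482 and 400.0 CPM in Tbxt 48 h libraries, the pluripotency markers to 3.73 and 4.89 CPM, with Nanog listed at 0, and the presomitic markers to 564 and 451 CPM against 42.5 to 57.2 CPM in NMPs. Mesenchyme markers stood at 236 and 205 CPM, 6 of 8 above the floor and Lum listed at 0, and neuron markers at 15 and 12.7 CPM. Their part in the member values was not tested.

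Compared directly, Tbxt 48 h and Sox2 48 h cells differed past the threshold in 1 member, the cyclin Ccnd2, beside 3.90% of all genes (2.05% higher, 1.85% lower); limma called 0 of 23 S-phase and 0 of 24 G2/M genes. At an unadjusted p under 0.05, 5 members were above and 4 below, and a fit of these groups alone called 6. The G2/M estimates were positive for 22 of 24 genes with a median of 0.23, against 0.07 for S-phase and 0.02 for all genes. The helicase genes Mcm5 (-0.46 ± 0.15, adjusted p = 0.123) and Cdt1 (-0.39 ± 0.18, adjusted p = 0.255) did not pass, nor did the checkpoint kinase Bub1 (0.67 ± 0.23, adjusted p = 0.13).

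In Sox2-derived cells grown in FGF and sorted as Sox2+ at 7 d, G2/M genes rose against Sox2 48 h cells while S-phase genes showed little change. The Sox2 48 h cells came from FGF/CHIR, so time and medium cannot be told apart here. The higher genes were 15 of 24 G2/M, 1 of 23 S-phase and 1 of 3 D-type cyclin genes, and 0 were lower. These 17 of 50 stand beside 24.7% of all genes tested (18.2% higher, 6.51% lower). All 24 G2/M estimates were positive, with a median of 0.77, against 0.20 for S-phase and 0.17 for all genes. Of the G2/M roles, 7 of 8 mitotic cyclin and CDK1 genes, 3 of 7 kinase and checkpoint genes and 5 of 9 chromosome and spindle genes rose, and 0 of 11 helicase genes did. All genes moved with the scaling: their median of 0.169 became 0.011 with median-of-ratios scaling, and higher calls over all genes went from 2361 of 3203 to 1720 of 3085, or 1463 of 2803 with quantile normalization. Called members were 16 and 18 under these scalings, all of them higher.

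Ccnb1, the B-type cyclin of mitotic entry, stood at 194, 228 and 226 CPM in the NMP libraries, 140.5 and 131 CPM in Sox2 48 h and 142 and 164 CPM in Tbxt 48 h libraries. The 7 d levels were 349 and 273 CPM in FGF Sox2+, 181 CPM in FGF/CHIR Sox2+, 163 CPM in FGF DN, 150.0 CPM in FGF/CHIR DN and 85.8, 93.8 and 101 CPM in Tbxt 7 d libraries. Both FGF Sox2+ libraries lay above every other library of the series, and Ccnb1 rose against Sox2 48 h cells (1.18 ± 0.16, adjusted p = 0.00023). Cdc20 stood at 366, 325 and 312 CPM in the NMP libraries, 229 and 244 CPM in Sox2 48 h and 230.3 and 231 CPM in Tbxt 48 h libraries, and at 7 d at 471 and 387 CPM in FGF Sox2+, 283 CPM in FGF/CHIR Sox2+, 253 CPM in FGF DN, 233 CPM in FGF/CHIR DN and 111, 139 and 145 CPM in Tbxt 7 d libraries. Again FGF Sox2+ libraries were the highest, the 48 h, FGF DN and FGF/CHIR DN libraries were close to each other, and Tbxt 7 d libraries were lowest without overlap. Ccnb2 (1.15 ± 0.16, adjusted p = 0.000332) and Cdc25c (0.97 ± 0.21, adjusted p = 0.00487) rose too, and Ube2c was the cyclin-group gene that did not pass. Nusap1, low at 48 h, had the largest estimate (2.07 ± 0.29, adjusted p = 0.00034).

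Aurkb, the kinase of the chromosomal passenger complex, stood at 90.2, 105 and 84.9 CPM in the NMP libraries, 60.3 and 56.9 CPM in Sox2 48 h and 70.1 and 91.3 CPM in Tbxt 48 h libraries. Values at 7 d were 129 and 88.9 CPM in FGF Sox2+, 83.3 CPM in FGF/CHIR Sox2+, 49.9 CPM in FGF DN, 69.4 CPM in FGF/CHIR DN and 50.7, 38 and 40.8 CPM in Tbxt 7 d libraries. FGF Sox2+ replicate 1 was the highest library and replicate 2 was within the NMP range; the rise against Sox2 48 h cells (0.86 ± 0.21, adjusted p = 0.0104) was lost without Sox2 48 h replicate 2 (0.0748) or FGF Sox2+ replicate 1 (0.0876). Aurka (1.07 ± 0.19, adjusted p = 0.00182) and Plk1 (0.86 ± 0.15, adjusted p = 0.00132) rose. Cenpf, a kinetochore protein, stood at 79.6, 103 and 97.6 CPM in the NMP libraries, 52.5 and 71.8 CPM in Sox2 48 h and 67.9 and 88.6 CPM in Tbxt 48 h libraries. At 7 d it was 166 and 108 CPM in FGF Sox2+, 90.7 CPM in FGF/CHIR Sox2+, 52.4 CPM in FGF DN, 56.9 CPM in FGF/CHIR DN and 61.4, 46.2 and 67.4 CPM in Tbxt 7 d libraries. Here too replicate 1 of FGF Sox2+ was the highest and replicate 2 just above the NMP range, and the rise (1.11 ± 0.25, adjusted p = 0.00665) was lost without FGF Sox2+ replicate 1 (0.0628) or Sox2 48 h replicate 1 (0.0677). Mki67, the proliferation antigen, rose (1.37 ± 0.34, adjusted p = 0.0132), with 0.105 and 0.103 without the same libraries. Tpx2, a spindle assembly factor and activator of Aurora A, stood at 52.9, 60.5 and 56.5 CPM in the NMP libraries, 40.6 and 50.8 CPM in Sox2 48 h and 52.1 and 49.8 CPM in Tbxt 48 h libraries. Its 7 d values were 77.5 and 75.1 CPM in FGF Sox2+, 60.9 CPM in FGF/CHIR Sox2+, 43.7 CPM in FGF DN, 58.4 CPM in FGF/CHIR DN and 41.6, 33.7 and 38.2 CPM in Tbxt 7 d libraries. Its FGF Sox2+ libraries were above all others, and its Tbxt 7 d libraries were the lowest apart from an overlap with Sox2 48 h replicate 1.

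FGF Sox2+ replicate 1 carried more of this increase: without it 11 members were called. Prim1 was the S-phase gene that rose (0.78 ± 0.17, adjusted p = 0.00516). Neural progenitor and neuron markers stood above Sox2 48 h libraries in the same cells. All 5 progenitor markers were above the floor, summing to 717 and 1130 CPM in FGF Sox2+ against 68.7 and 72.5 CPM in Sox2 48 h libraries. The 8 neuron markers summed to 191 and 647 CPM against 19.7 and 33.7 CPM, and Isl1, 1 of the 8, was listed at 0 in FGF Sox2+ replicate 2. Both lists had their lower sum in FGF Sox2+ replicate 1, where the G2/M median was the larger (0.453 against 0.081). The 5 pluripotency markers summed to 185 and 45.4 CPM, with 5 and 3 above the floor, against 15.5 and 15.2 CPM in Sox2 48 h libraries. The part of these markers in the cell cycle values was not tested.

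In FGF/CHIR, the single Sox2+ library at 7 d gave 0 of 50 calls against Sox2 48 h cells by limma, beside 1.81% of all genes (1.64% higher, 0.170% lower), with 12 members above and 0 below at an unadjusted p under 0.05; voom on inferred reads called 2 higher and a fit of these groups alone 3. The G2/M estimates were positive for 23 of 24 genes with a median of 0.48, against -0.02 for S-phase and 0.12 for all genes. Nusap1 (1.44 ± 0.36, adjusted p = 0.0676), Plk1 (0.68 ± 0.18, adjusted p = 0.0893) and Aurka (0.83 ± 0.24, adjusted p = 0.112) came nearest to the threshold. Across both 7 d sorts of Sox2-derived cells, FGF/CHIR against FGF gave 0 of 50 by limma beside 13.8% of all genes (5.94% higher, 7.86% lower). At an unadjusted p under 0.05, 2 members were above and 4 below, and voom called 1. Ccnb1 (-0.44 ± 0.15, adjusted p = 0.0629) and Rrm1, the large subunit of ribonucleotide reductase (0.46 ± 0.17, adjusted p = 0.0938), lay in opposite directions short of the threshold. S-phase and G2/M medians were both -0.07, and that of all genes was -0.03.

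Sox2-derived cells sorted as DN at 7 d had lower levels of several G2/M genes and of Mcm5 and Mcm7 than those sorted as Sox2+. Over both media DN against Sox2+ gave 11 of 50 lower and 0 higher (9 of 24 G2/M and 2 of 23 S-phase), beside 14.1% of all genes (7.12% higher, 6.99% lower). The medians were -0.47 for G2/M, -0.32 for S-phase and -0.10 for all genes. Within FGF, the DN library lay below the Sox2+ mean for all 24 G2/M genes (median -0.727) and 21 of 23 S-phase genes (-0.351). Within FGF/CHIR, with 1 library a side, it did so for 22 of 24 (-0.22) and 21 of 23 (-0.275). Of all 12943 genes tested, 7623 lay below in FGF (median -0.122) and 7105 in FGF/CHIR (median -0.058). Mcm7 had one of the larger estimates (-0.76 ± 0.17, adjusted p = 0.00943), its DN libraries being lower than all libraries but those of Tbxt 7 d cells. Cenpf (-0.998 ± 0.23, adjusted p = 0.0135), Plk1 (-0.62 ± 0.14, adjusted p = 0.0105) and Ccnb1 (-0.59 ± 0.15, adjusted p = 0.0175) were lower.

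Aurka (-0.65 ± 0.18, adjusted p = 0.0305), Aurkb (-0.67 ± 0.20, adjusted p = 0.0376), Cdc20 (-0.52 ± 0.14, adjusted p = 0.0311) and Top2a, the topoisomerase that untangles chromosomes (-0.62 ± 0.17, adjusted p = 0.028), were also lower in DN cells, but not without FGF Sox2+ replicate 1, where their adjusted p was 0.0573, 0.072, 0.0642 and 0.0568. Mcm5 (-0.53 ± 0.14, adjusted p = 0.0295) was lost without FGF Sox2+ replicate 2 (0.0528) and Ube2c (-0.68 ± 0.21, adjusted p = 0.0498) without either (0.0768 to 0.0932). Members called numbered 5 without FGF Sox2+ replicate 1 and 4 with median-of-ratios scaling, which moved the median of all genes from -0.105 to 0.008 and higher calls over all genes from 921 of 1826 to 1206 of 1817. Cdc6 did not follow the helicase group: at 70.1 CPM its highest library was FGF DN, against 43.8 and 46.3 CPM in FGF Sox2+ and 41.1 CPM in FGF/CHIR DN. Other markers moved with the DN sort. The 8 mesenchyme markers, 7 and 8 of them above the floor, summed to 679 CPM in FGF DN and 1580 CPM in FGF/CHIR DN, against 98.7 and 396 CPM in FGF Sox2+ and 329 CPM in FGF/CHIR Sox2+. The 5 pluripotency markers summed to 192 and 345 CPM, against 185, 45.4 and 5.16 CPM. The 4 visceral endoderm markers summed to 152 CPM in FGF DN, where Ttr stood at 147 CPM and Apob was listed at 0, and to at most 5.94 CPM in the other 7 d libraries. Their part in the member values was not tested.

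Tbxt-derived cells at 7 d had low levels of nearly the whole S-phase set and of most G2/M genes. Against Tbxt 48 h cells, 20 of 23 S-phase and 14 of 24 G2/M genes were lower, and E2f1, Nusap1 and Ccnd3 were higher; these 34 lower and 3 higher of 50 stand beside 54.2% of all genes (30.7% higher, 23.5% lower). The medians were -1.06 for S-phase, -0.50 for G2/M and 0.09 for all genes. Against NMPs, 22 of 23 S-phase and 19 of 24 G2/M genes were lower, 41 in all with 3 higher, beside 62.7% of all genes (33.0% higher, 29.7% lower); the medians were -1.38, -0.82 and 0.07. Against FGF Sox2+ cells of the same day, 22 of 23 S-phase and 20 of 24 G2/M genes were lower and 0 higher, beside 47.6% of all genes (21.1% higher, 26.5% lower), with medians of -1.37, -1.08 and -0.07. These comparisons share the Tbxt 7 d libraries. The FGF Sox2+ cells differ from Tbxt 7 d cells in branch, medium and sort, which cannot be told apart. Against Tbxt 48 h cells the higher share of all calls depended on the scaling, with 3969 of 7014 as deposited, 3588 of 7030 with median-of-ratios scaling and 2954 of 6705 with quantile normalization. Called members were 39 and 37 under these scalings.

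All 11 helicase genes fell from Tbxt 48 h to Tbxt 7 d cells, with estimates of -2.06 to -0.66 and a median of -1.06, and all 11 were lower than in NMPs (median -1.58). Mcm7 in the Tbxt 7 d libraries, as listed above, reached at most 132 CPM while the lowest of all other libraries held 203 CPM, a difference of -1.99 ± 0.15 from NMPs (adjusted p = 1.76e-07) and -1.81 ± 0.16 from FGF Sox2+ cells (2.26e-06). Mcm10, which activates the loaded helicase, fell from Tbxt 48 h cells (-2.06 ± 0.23, adjusted p = 9.43e-06), and so did Mcm3 (-1.69 ± 0.22, adjusted p = 3.73e-05) and Cdc6 (-1.79 ± 0.33, adjusted p = 0.000726). For Cdc6 the Tbxt 7 d libraries held 23.6, 8.12 and 8.16 CPM, replicate 1 being the highest, and the other groups 39.9 to 70.1 CPM.

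Of the 9 replication and nucleotide enzymes, 7 fell from Tbxt 48 h to Tbxt 7 d cells and all 9 were lower than in NMPs (median -0.85). Ung, the uracil-DNA glycosylase, stood at 83.7, 66.1 and 69.2 CPM in the NMP libraries, 94 and 98.5 CPM in Sox2 48 h and 68.2 and 54.1 CPM in Tbxt 48 h libraries. The 7 d levels were 66.2 and 47.6 CPM in FGF Sox2+, 90.3 CPM in FGF/CHIR Sox2+, 52.4 CPM in FGF DN, 43 CPM in FGF/CHIR DN and 25.9, 8.51 and 7.9 CPM in Tbxt 7 d libraries. Tbxt 7 d libraries were lowest without overlap, replicate 1 above the other two, and Ung was lower than in Tbxt 48 h cells (-2.23 ± 0.39, adjusted p = 0.000571) and NMPs (-2.48 ± 0.35, adjusted p = 8.68e-05). Rrm1 stood at 204, 204 and 175 CPM in the NMP libraries, 148 and 156 CPM in Sox2 48 h and 192 and 228 CPM in Tbxt 48 h libraries. Values at 7 d were 181 and 218 CPM in FGF Sox2+, 245 CPM in FGF/CHIR Sox2+, 149 CPM in FGF DN, 229 CPM in FGF/CHIR DN and 163, 115 and 115 CPM in Tbxt 7 d libraries. Its highest library was FGF/CHIR Sox2+; Tbxt 7 d replicate 1 lay just above the Sox2 48 h and FGF DN libraries, and the other Tbxt 7 d libraries were the lowest. Rrm1 fell from Tbxt 48 h cells (-0.69 ± 0.17, adjusted p = 0.00359), with 0.0513 without Tbxt 48 h replicate 2. The sliding clamp Pcna (-1.44 ± 0.18, adjusted p = 2.86e-05) and the flap endonuclease Fen1 (-1.42 ± 0.22, adjusted p = 0.000172) fell as well, while Pola1, the catalytic subunit of DNA polymerase alpha (-0.59 ± 0.24, adjusted p = 0.0579) and its primase partner Prim1 (0.11 ± 0.15, adjusted p = 0.553) did not pass.

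The 3 G1/S regulators split. Ccne1, cyclin E1, stood at 138, 132 and 116 CPM in the NMP libraries, 140.3 and 138 CPM in Sox2 48 h and 146 and 154 CPM in Tbxt 48 h libraries. At 7 d it was 164 and 126 CPM in FGF Sox2+, 118 CPM in FGF/CHIR Sox2+, 118 CPM in FGF DN, 102 CPM in FGF/CHIR DN and 49.5, 23 and 19 CPM in Tbxt 7 d libraries. The lowest library of the other groups held 102 CPM and the highest Tbxt 7 d library 49.5 CPM, and Ccne1 fell from Tbxt 48 h cells (-2.38 ± 0.30, adjusted p = 4.67e-05). Ccne2, cyclin E2, stood at 22.8, 25.2 and 23.3 CPM in the NMP libraries, 45.7 and 37 CPM in Sox2 48 h and 52.9 and 55.2 CPM in Tbxt 48 h libraries. Its 7 d values were 22.3 and 20 CPM in FGF Sox2+, 35.3 CPM in FGF/CHIR Sox2+, 32.8 CPM in FGF DN, 28.1 CPM in FGF/CHIR DN and 16, 6.93 and 3.69 CPM in Tbxt 7 d libraries. It was highest in the Tbxt 48 h and Sox2 48 h libraries, and it fell from Tbxt 48 h to Tbxt 7 d cells (-2.68 ± 0.38, adjusted p = 0.000122); against FGF Sox2+ cells (-1.37 ± 0.38, adjusted p = 0.0119) the call was lost without FGF Sox2+ replicate 1 (0.0733) and in a fit of these groups alone (0.0758). E2f1, the activating E2F factor, went the other way from most of the S-phase group. It stood at 25.8, 26.1 and 18.8 CPM in the NMP libraries, 28.4 and 27 CPM in Sox2 48 h and 25.2 and 21.3 CPM in Tbxt 48 h libraries. The 7 d levels were 36.7 and 42.6 CPM in FGF Sox2+, 39.9 CPM in FGF/CHIR Sox2+, 20.6 CPM in FGF DN, 37.3 CPM in FGF/CHIR DN and 41.6, 33.7 and 32.4 CPM in Tbxt 7 d libraries. All 7 d libraries except FGF DN lay above all NMP and 48 h libraries. E2f1 was higher in Tbxt 7 d cells than in NMPs (0.59 ± 0.17, adjusted p = 0.00757) and Tbxt 48 h cells (0.60 ± 0.19, adjusted p = 0.0154), the latter call being lost without Tbxt 48 h replicate 2 (0.128) and with quantile normalization (0.0823).

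G2/M genes were lower in Tbxt 7 d cells with exceptions among the chromosome and spindle genes. From Tbxt 48 h cells, 5 of 8 mitotic cyclin and CDK1 genes, 6 of 7 kinase and checkpoint genes and 3 of 9 chromosome and spindle genes fell; from NMPs it was 7 of 8, 7 of 7 and 5 of 9. Ccnb1 (-0.70 ± 0.14, adjusted p = 0.00113), Cdc20 (-0.81 ± 0.14, adjusted p = 0.000349) and Cdk1, the mitotic kinase itself (-0.70 ± 0.15, adjusted p = 0.00207), fell from Tbxt 48 h cells. So did the kinetochore kinase Bub1 (-1.41 ± 0.21, adjusted p = 1e-04) and Aurkb (-0.89 ± 0.19, adjusted p = 0.00175). Falls of the checkpoint kinase Ttk (-1.02 ± 0.28, adjusted p = 0.00834) and the kinesin Kif20b (-0.85 ± 0.24, adjusted p = 0.00988) were lost without Tbxt 48 h replicate 2, at 0.105 and 0.0749. That of Hmmr, a spindle-associated protein (-0.57 ± 0.20, adjusted p = 0.0289), was lost without that library or Tbxt 7 d replicate 2 or 3, at 0.0529 to 0.215.

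Against NMPs, Cdc20 (-1.34 ± 0.13, adjusted p = 1.54e-06), Ccnb1 (-1.20 ± 0.13, adjusted p = 4.58e-06), Plk1 (-1.13 ± 0.12, adjusted p = 5.04e-06) and the kinesin Kif11 (-0.89 ± 0.25, adjusted p = 0.00757) were lower in Tbxt 7 d cells. Mki67 stood at 27.5, 47 and 39.5 CPM in NMPs and 56.5, 31.5 and 44.4 CPM in Tbxt 7 d libraries, and Top2a at 184, 229.6 and 214 CPM and 234, 169.9 and 199 CPM. The groups overlapped for both. Neither passed the test, with 0.21 ± 0.28, adjusted p = 0.545 for Mki67 and -0.07 ± 0.15, adjusted p = 0.709 for Top2a, and the centromere motor Cenpe was at -0.03 ± 0.19, adjusted p = 0.911. Nusap1 did not pass against NMPs and was higher than at Tbxt 48 h (1.19 ± 0.27, adjusted p = 0.00219).

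The Tbxt 7 d cells were also set against the DN cells that Sox2-derived cultures gave in the same medium, a single library. There 16 of 23 S-phase and 8 of 24 G2/M genes were lower and Ccnd2 was higher, 25 of 50 members beside 16.7% of all genes (7.88% higher, 8.86% lower). The medians were -0.94, -0.56 and, for all genes, 0.03. In a fit of these groups alone, with few libraries, 0 members were past the threshold, and the reason was not tested. Ccne1 (-1.83 ± 0.38, adjusted p = 0.00788), Mcm10 (-1.33 ± 0.29, adjusted p = 0.0081), Cdc20 (-0.82 ± 0.18, adjusted p = 0.00813) and Birc5, the passenger protein survivin (-0.94 ± 0.18, adjusted p = 0.0036), were among those lower. Calls for Ccnd2, Ccne2 and Plk1 were lost without Tbxt 7 d replicate 2 (0.0605, 0.0625 and 0.0686), and those for Tpx2 and Ung without replicate 2 or 3 (0.0694 to 0.0985). In Tbxt 7 d libraries the summed mesenchyme markers stood above Tbxt 48 h and NMP libraries, while most members stood below them. All 8 markers were above the floor, with sums of 4050 to 6440 CPM. The sums were 205 and 236 CPM in Tbxt 48 h and 53.3 to 68.5 CPM in NMP libraries. Col3a1 alone stood at 3022.7, 3154.6 and 3599.2 CPM in Tbxt 7 d libraries. Acta2 was uneven, at 131.6, 7.57 and 12.2 CPM there against 87.6 and 66.2 CPM in Tbxt 48 h libraries. The part of these markers in the result was not tested.

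**Figure D3:**
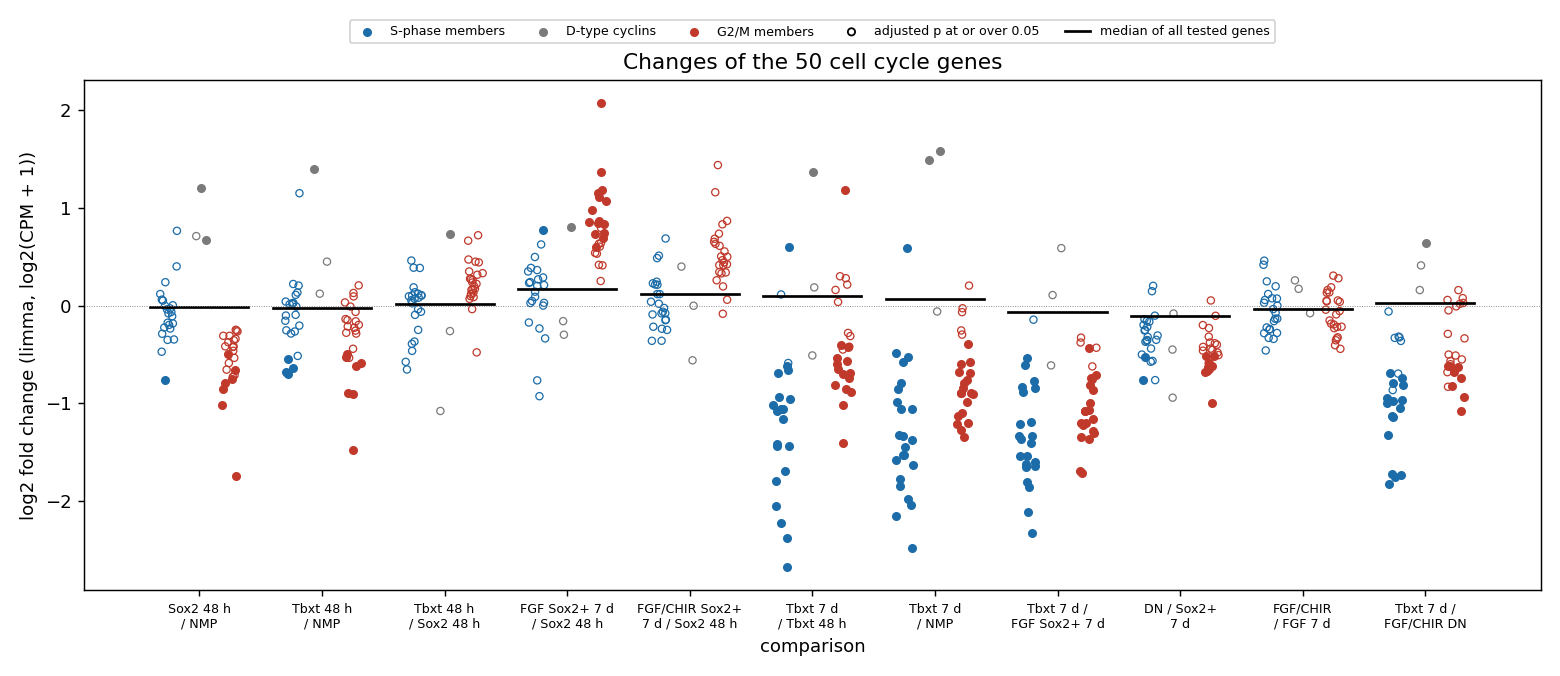
Each point is the log2 fold change of 1 gene in 1 of 11 comparisons, coloured by phase, filled where the adjusted p is under 0.05; black lines give the median of all genes tested. In the comparisons of Tbxt 7 d cells most S-phase and G2/M points lie below the line. Against Tbxt 48 h cells the points above it include the called genes E2f1 and Nusap1 and others not called, such as Prim1. All 24 G2/M points lie above it in FGF Sox2+ against Sox2 48 h cells.

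The D-type cyclins did not follow the other members. Ccnd1 stood at 296, 382 and 335 CPM in the NMP libraries, 538 and 563 CPM in Sox2 48 h and 495 and 426 CPM in Tbxt 48 h libraries. Values at 7 d were 448 and 542 CPM in FGF Sox2+, 373 CPM in FGF/CHIR Sox2+, 172 CPM in FGF DN, 288 CPM in FGF/CHIR DN and 172, 415 and 466 CPM in Tbxt 7 d libraries. Its 48 h libraries were above NMPs and its Tbxt 7 d libraries spread from the second-lowest value of the series to levels of the 48 h libraries. Ccnd1 passed the test in none of the 11 comparisons. Ccnd2 stood at 273, 357 and 358 CPM in the NMP libraries, 541 and 503 CPM in Sox2 48 h and 832 and 899 CPM in Tbxt 48 h libraries. At 7 d it was 887 and 941 CPM in FGF Sox2+, 521 CPM in FGF/CHIR Sox2+, 402 CPM in FGF DN, 633 CPM in FGF/CHIR DN and 1147, 974 and 854 CPM in Tbxt 7 d libraries. NMP libraries were lowest and did not overlap any other group, and Tbxt 7 d, FGF Sox2+ and Tbxt 48 h libraries were highest. Ccnd2 was higher than in NMPs in Tbxt 48 h (1.40 ± 0.15, adjusted p = 5.23e-05) and Tbxt 7 d cells (1.59 ± 0.13, adjusted p = 4.99e-07), and it rose in FGF Sox2+ cells over Sox2 48 h cells (0.81 ± 0.16, adjusted p = 0.00334). Its difference of Tbxt 48 h from Sox2 48 h cells (0.73 ± 0.16, adjusted p = 0.0243) was lost without any 1 of the 4 libraries, at up to 0.233, and the rise in Sox2 48 h cells (0.67 ± 0.15, adjusted p = 0.0133) without either Sox2 48 h library (0.0809 to 0.109).

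Ccnd3 stood at 59.1, 35.3 and 34.3 CPM in the NMP libraries, 99.6 and 94.2 CPM in Sox2 48 h and 61.7 and 33.2 CPM in Tbxt 48 h libraries. Its 7 d values were 89.6 and 68.9 CPM in FGF Sox2+, 128 CPM in FGF/CHIR Sox2+, 101 CPM in FGF DN, 88.9 CPM in FGF/CHIR DN and 129, 97.6 and 132 CPM in Tbxt 7 d libraries. It was low in 2 of 3 NMP and in 1 Tbxt 48 h library and highest in Tbxt 7 d replicates 1 and 3 and the FGF/CHIR Sox2+ library. Ccnd3 was higher in Tbxt 7 d cells than in NMPs (1.49 ± 0.25, adjusted p = 0.000212) and Tbxt 48 h cells (1.37 ± 0.28, adjusted p = 0.0012). In Sox2 48 h cells its rise over NMPs (1.20 ± 0.28, adjusted p = 0.019) was lost without NMP replicate 2, NMP replicate 3 or either Sox2 48 h library, at up to 0.127.

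CDK inhibitors restrain the cyclin kinases, and the list held 7. From Tbxt 48 h to Tbxt 7 d cells 6 of 7 rose and Cdkn1a, the p21 gene, fell (-1.04 ± 0.32, adjusted p = 0.0187; 0.068 and 0.104 without Tbxt 48 h replicate 1 or 2). Over all genes 30.7% were higher and 23.5% lower there. Cdkn1c, the p57 gene, stood at 41.3, 33.4 and 32 CPM in the NMP libraries, 134 and 103 CPM in Sox2 48 h and 99 and 91.5 CPM in Tbxt 48 h libraries. The 7 d levels were 120.2 and 165 CPM in FGF Sox2+, 91 CPM in FGF/CHIR Sox2+, 227 CPM in FGF DN, 95.3 CPM in FGF/CHIR DN and 380.0, 382 and 419.8 CPM in Tbxt 7 d libraries. All Tbxt 7 d libraries lay above all others. Cdkn1c was higher than in NMPs in Sox2 48 h (1.71 ± 0.17, adjusted p = 6.36e-05), Tbxt 48 h (1.40 ± 0.17, adjusted p = 0.000157) and Tbxt 7 d cells (3.44 ± 0.15, adjusted p = 2.57e-09). Cdkn1b, the p27 gene, was lower than in NMPs in Sox2 48 h (-1.11 ± 0.25, adjusted p = 0.0171) and Tbxt 48 h cells (-1.71 ± 0.25, adjusted p = 0.000653), the former call being lost without NMP replicate 2 or 3 or either Sox2 48 h library (0.0606 to 0.151). It rose again in FGF Sox2+ (1.95 ± 0.28, adjusted p = 0.000371) and Tbxt 7 d cells (1.39 ± 0.25, adjusted p = 0.00054). In FGF Sox2+ cells 3 of 7 inhibitors were higher, beside 18.2% of all genes, and Cdkn1a was lower (-1.45 ± 0.35, adjusted p = 0.0132) than in Sox2 48 h cells, the latter with 0.0734 without Sox2 48 h replicate 1 and 0.0839 without FGF Sox2+ replicate 1.

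**Figure D4:**
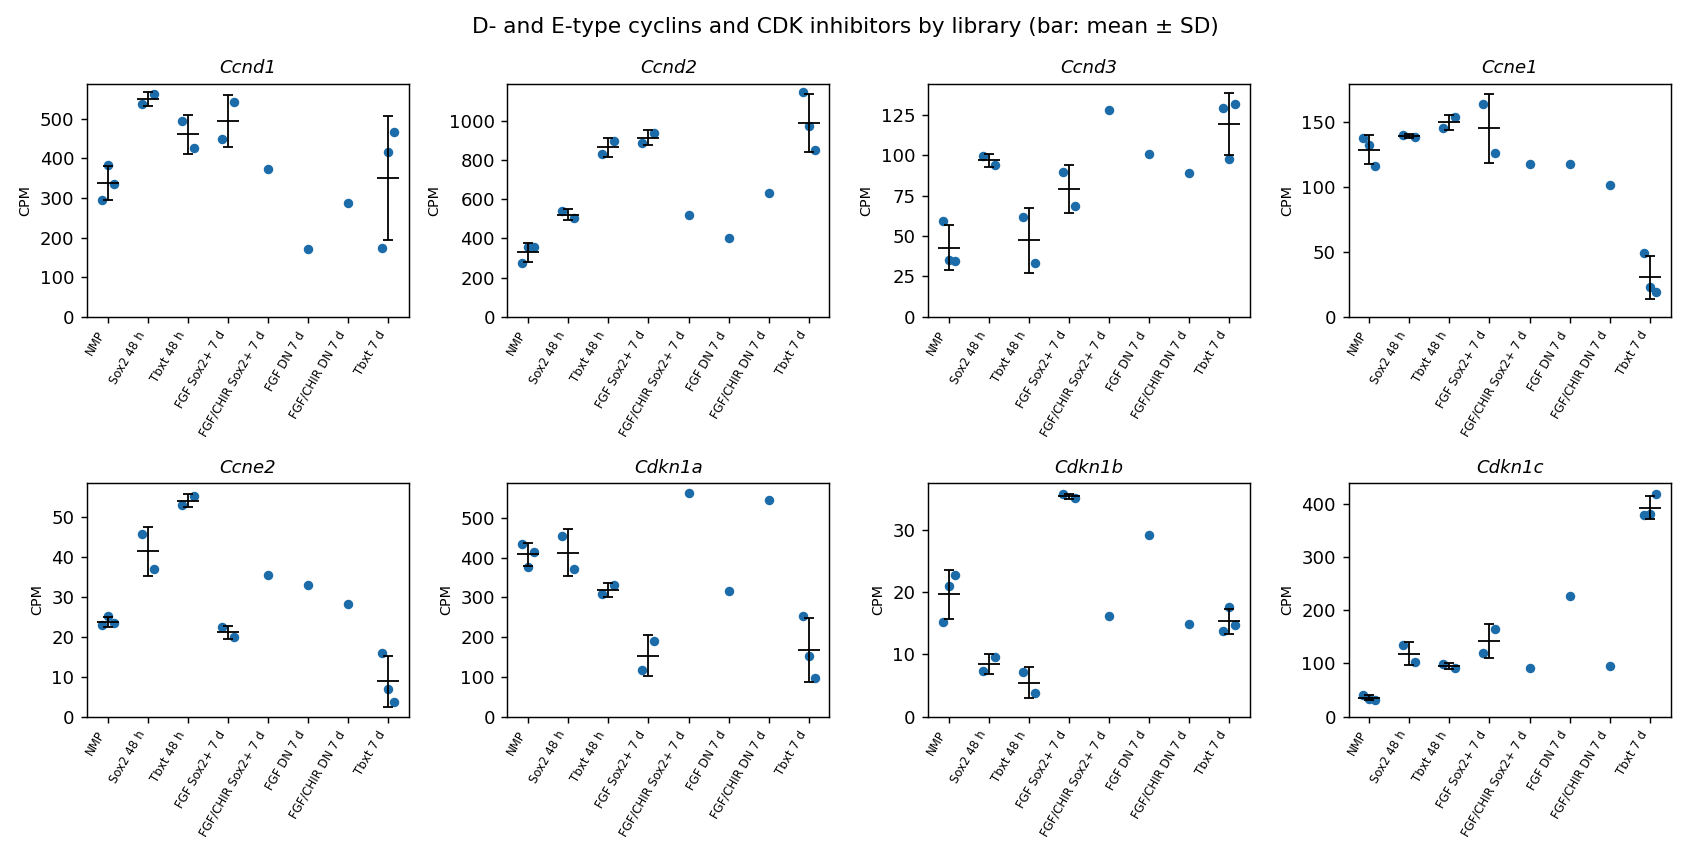
CPM of the D-type and E-type cyclins and of the inhibitors Cdkn1a, Cdkn1b and Cdkn1c; points are libraries, and bars give the mean ± SD where a group has more than 1 library. Ccne1 is at most 49.5 CPM and Cdkn1c highest in the Tbxt 7 d libraries, where Ccnd2 stands at 854 to 1147 CPM.

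Other genes of the same pathways were read from lists that hold no member. Of 37 further replication genes, 25 fell from Tbxt 48 h to Tbxt 7 d cells and 0 rose (median -0.83), beside 23.5% of all genes lower and 30.7% higher. The largest changes were in Dut, the dUTPase (-1.77 ± 0.14, adjusted p = 6.23e-07), the origin recognition gene Orc2 (-1.75 ± 0.20, adjusted p = 1.21e-05) and Gmnn, geminin (-1.70 ± 0.14, adjusted p = 7.93e-07). Against NMPs 32 of 37 were lower, beside 29.7% of all genes. In FGF Sox2+ cells 1 of 37 rose over Sox2 48 h cells (median 0.08), beside 18.2% of all genes. Of 43 further mitotic genes, 28 rose and 1 fell in FGF Sox2+ cells (median 0.67), beside 18.2% of all genes higher and 6.51% lower, led by Pttg1, securin (1.55 ± 0.22, adjusted p = 0.000319), and Ckap2l, a spindle protein (1.52 ± 0.17, adjusted p = 6.79e-05); 10 of 43 had been lower than NMPs in Sox2 48 h cells (median -0.40), beside 5.27% of all genes. In Tbxt 7 d cells 26 of 43 fell from 48 h, beside 23.5% of all genes, such as Mad2l1 of the spindle checkpoint (-2.31 ± 0.17, adjusted p = 2.84e-07), and 2 rose, one being the phosphatase Cdc25b (2.16 ± 0.24, adjusted p = 1.23e-05).

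Of 17 pocket protein, E2F and MuvB genes, 8 fell and 3 rose from Tbxt 48 h to Tbxt 7 d cells (median -0.31), beside 23.5% of all genes lower and 30.7% higher. The repressor E2f8 (-2.60 ± 0.27, adjusted p = 6.42e-06) and the dimer partner Tfdp1 (-1.57 ± 0.20, adjusted p = 3.14e-05) fell, and Rb1, the retinoblastoma gene, rose (1.35 ± 0.33, adjusted p = 0.00366; 0.0556 without Tbxt 48 h replicate 1). In FGF Sox2+ cells 5 of 17 rose and 0 fell, beside 18.2% and 6.51% of all genes, among them Mybl2, the B-MYB gene (1.28 ± 0.32, adjusted p = 0.011), and again Rb1 (1.55 ± 0.36, adjusted p = 0.00795). The call of Mybl2 was lost without Sox2 48 h replicate 1 (0.0759) or FGF Sox2+ replicate 1 (0.0859), and that of Rb1 without replicate 2 of Sox2 48 h (0.0525) or of FGF Sox2+ (0.0815). Among the 3 G1 kinases, Cdk6 was higher than in NMPs at 48 h in Sox2 (1.18 ± 0.21, adjusted p = 0.00402; 0.0646 without Sox2 48 h replicate 2) and Tbxt cells (1.59 ± 0.21, adjusted p = 0.00028) and fell in FGF Sox2+ cells by 7 d (-1.49 ± 0.23, adjusted p = 0.000635).

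Whether the change from 48 h to 7 d differed between the Tbxt-derived and the Sox2-derived branch was tested as a difference of differences, chosen after the values were seen. It set Tbxt 48 h to Tbxt 7 d against Sox2 48 h to FGF Sox2+ 7 d, branches that also differ in medium and sort at 7 d and cannot be told apart from them. The Tbxt branch change was lower for 19 of 23 S-phase and 18 of 24 G2/M genes and for Ccnd2, a call lost with median-of-ratios or quantile scaling (0.0577 and 0.0883), and higher for Ccnd3, 39 of 50 members beside 33.6% of all genes (14.2% higher, 19.4% lower). The medians were -1.30 for S-phase, -1.21 for G2/M and -0.07 for all genes. Helicase genes counted 10 of 11, enzymes 7 of 9, mitotic cyclin and CDK1 genes 6 of 8, kinase and checkpoint genes 7 of 7 and chromosome and spindle genes 5 of 9. Ccnb1 had an estimate of -1.88 ± 0.21, adjusted p = 4.91e-05, Bub1 of -1.95 ± 0.31, adjusted p = 0.000561, Pcna of -1.71 ± 0.27, adjusted p = 0.00054 and Ccne1 of -2.43 ± 0.45, adjusted p = 0.00187. Members that did not pass were Mcm6, Ung, Pola1, E2f1, Ccnd1, Cdc25c, Ube2c, Mki67, Cenpe, Kif11 and Nusap1.

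**Figure D5:**
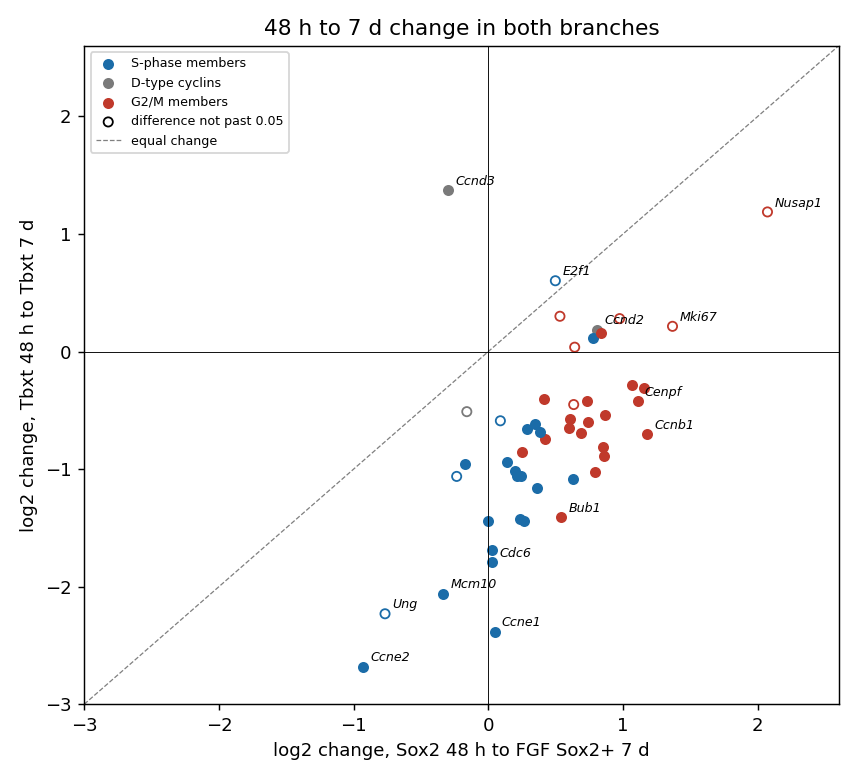
Each point is 1 gene, with the log2 change from Sox2 48 h to FGF Sox2+ 7 d cells on the x axis and from Tbxt 48 h to Tbxt 7 d cells on the y axis; filled points differ between the branches past an adjusted p of 0.05. On the y axis 21 of 23 S-phase and 18 of 24 G2/M genes lie below 0, E2f1 and Prim1 being the S-phase genes above it; on the x axis all 24 G2/M genes lie right of 0 and S-phase genes spread to both sides (median 0.20).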

How the data were processed

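The members and gene lists were chosen with earlier results of these data known. Per the submitters' processing notes, STAR 2.7 and SAMtools 1.21 were run by the authors, with GRCm39 as the genome build; the counting step is not given in the sources used here. Per the labels' protocols, bead-captured RNA was primed with oligo-dT, tagged with UMIs and tagmented, so levels were compared within a gene only. The deposited table gives CPM; 21909 of its 78409 rows had no gene name and 92 were ERCC spike-ins, and both were left out. The 627 rows sharing 311 symbols were summed. Whole reads were not recovered (71.1 to 78.7% of values were whole multiples of 1 read within 0.01 reads), so no count test was run.

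Libraries were grouped by their labels, and 11 comparisons were made. Testing used limma 3.58.1 (limma-trend, robust, two-sided; R 4.3.3, statmod 1.5.0, data.table version 1.17.8) on log2(CPM + 1), in 1 fit of 15 libraries and 8 groups with 7 residual degrees of freedom, so that single libraries took the spread of replicated groups. The 12943 genes reaching 5 CPM in 2 or more libraries entered the test, with Benjamini-Hochberg adjustment and a threshold of 0.05. The fit was also run on simulated data to see that added changes were recovered. That simulation gave all genes the same dispersion and had no outlying libraries, so it does not show the error rate for these libraries. Tests were named for up to 3 called members per role list and comparison, by size of change; non-passing and companion genes were added for contrast. Library values are given for the 3 members per list called most often. Alternatives were other pseudocounts, filters and scalings, the compared groups alone, a replicate block and leaving out each replicate; voom, crossed numbers and the difference of differences were added after the data were seen. Promoters came from the RefSeq entries of GRCm38.p6; that of Mcm7 overlaps Ap4m1 and was not printed. Python 3.11.15, numpy 2.4.6, pandas 2.3.3 and matplotlib 3.10.9 were used.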

Additional observations from a re-analysis of the deposited data

Results flagged for a closer look

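The 48 h to 7 d change differed between the Tbxt-derived and Sox2-derived branches for 19 of 23 S-phase and 18 of 24 G2/M genes. These calls came from the test of the difference itself and stand beside 33.6% of all genes tested (14.2% higher, 19.4% lower). The branches also differ in medium and sort at 7 d, and the test was chosen after the values were seen. Estimates are the log2 change of the Tbxt branch minus that of the Sox2 branch. Among S-phase genes they were -2.43 for Ccne1, -1.75 for Ccne2, -1.82 for Cdc6, -1.72 for Mcm10, -1.72 for Mcm3, -1.71 for Rrm2, -1.71 for Pcna and -1.65 for Fen1. Among G2/M genes they were -1.88 for Ccnb1, -1.66 for Cdc20, -1.47 for Ccnb2, -1.95 for Bub1, -1.82 for Ttk, -1.75 for Aurkb, -1.53 for Cenpf, -1.17 for Hmmr and -1.16 for Tpx2. The D-type cyclins went opposite ways, Ccnd3 at 1.67 and Ccnd2 at -0.62. The calls of Ccnd2 (0.0607 to 0.136) and Ccne2 (0.0562 to 0.106) were lost without any 1 of 8 and any 1 of 7 libraries, and those of Cdc6 (0.0601) and Hmmr (0.053) without Tbxt 48 h replicate 2. Ccnd2 was also lost with median-of-ratios scaling (0.0577), quantile normalization (0.0883) and no filter on low values (0.0746), and Ccne2 with no filter (0.058) and in a fit of the compared groups alone (0.0706).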

How the results depend on the processing

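Counts of called members depend on the design most where groups are small. Of 133 named gene and comparison pairs, 83 were past the threshold in every alternative run and 0 reversed. Fitting the compared groups alone gave 16 members in Sox2 48 h against NMP (10 as reported) and 6 in Tbxt 48 h against Sox2 48 h (1). It gave 3 in FGF/CHIR Sox2+ against Sox2 48 h (0) and 0 in Tbxt 7 d against FGF/CHIR DN (25). All these fits use fewer libraries than the full fit, and why the last lost its calls was not tested. Median-of-ratios scaling gave 4 in DN against Sox2+ (11), and voom gave 2 in FGF/CHIR Sox2+ against Sox2 48 h and 1 in FGF/CHIR against FGF. TTTGAA matched 7 G2/M promoters in the upstream bases alone and 14 in the whole window. Leaving out 1 replicate gave 2 to 11 called members in Sox2 48 h and 4 to 12 in Tbxt 48 h against NMP. The upper ends, 11 and 12, came without FGF Sox2+ replicate 2, a library in neither comparison. With 1 of the compared libraries left out, the counts were 2 to 8 (10 as reported) and 4 to 9 (12 as reported). Leaving out 1 replicate gave 0 to 1 in Tbxt 48 h against Sox2 48 h. Against Sox2 48 h it gave 11 to 22 in FGF Sox2+ and 0 to 0 in FGF/CHIR Sox2+. It gave 26 to 37 in Tbxt 7 d against Tbxt 48 h, 41 to 45 against NMP, 35 to 42 against FGF Sox2+ and 17 to 31 against FGF/CHIR DN. For DN against Sox2+ it gave 5 to 9, for FGF/CHIR against FGF 0 to 1 (1 without FGF Sox2+ replicate 2), and for the difference of differences 28 to 43. Tbxt 48 h against Sox2 48 h gave 0 without either Sox2 48 h library or Tbxt 48 h replicate 2.

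Over the whole series 4 of 21 same-number pairs had deviations correlated above 0.1 (range -0.188 to 0.48). Those 4 were NMP with Tbxt 48 h, at 0.4795 and 0.4568, and Sox2 48 h with FGF Sox2+, at 0.2015 for each number. Pairing between these groups is therefore not excluded. In a group of 2 libraries the deviations mirror each other, so a pair of such groups gives the same correlation for both numbers. The 21 pairs are thus not separate checks, and their count cannot decide whether library numbers pair the samples. With a replicate block the count was 6 in Sox2 48 h against NMP, 9 in Tbxt 48 h against NMP, 1 in Tbxt 48 h against Sox2 48 h (Ccnd3, lower, while the call of Ccnd2 was lost at an adjusted p of 0.0543), 17 in FGF Sox2+, 34, 44 and 40 for Tbxt 7 d against Tbxt 48 h, NMP and FGF Sox2+, and 35 for the difference of differences, without Ccnd2 (0.0879); crossed numbers in Tbxt 48 h gave 0 against Sox2 48 h. FGF Sox2+ replicate 2, at 0.799 M reads, limits precision for low members such as Ccne2, and 7 residual degrees of freedom limit all tests.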
